A study of Mus musculus with 8 samples.

Results

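The genes described here encode the non-laminin core of the vascular basement membrane. They are the type IV collagen chains Col4a1 to Col4a5, the nidogens Nid1 and Nid2, perlecan (Hspg2) and the multiplexin collagens Col15a1 and Col18a1. They are 10 of the 35756 genes in the table and were taken by name as a group of related matrix genes, with earlier results of these data known. RNA of tumor endothelial cells was sequenced from 4 Tie2-CreERT2;PPARβ/δ + Tamoxifen mice and 4 Tie2-CreERT2;PPARβ/δ + vehicle mice of the strain C57BL/6, with 1 library per mouse. The methods give 4 back-crosses onto C57BL/6J for the Tie2-CreERT2 line and state none for the PPARβ/δ-flox line. Both groups carried the CreERT2 transgene and a PPARβ/δ-flox+/− allele according to the methods, whereas wild-type is the genotype that the labels give for vehicle mice. Tamoxifen in sunflower oil, or sunflower oil alone, was injected before LLC1 Lewis lung carcinoma cells were placed under the skin, and the tumors were taken weeks later. The mice were matched for age and sex, but the sources used here state no age. The endothelial cells were isolated with magnetic beads against CD31 (Pecam1), which some leukocytes and platelets carry too. Tie2 drives the recombinase in endothelial cells and also in some blood cells. Tie2-CreERT2 mice without the PPARβ/δ allele that received Tamoxifen were not analysed here, so induction of PPARβ/δ and exposure to Tamoxifen or active Cre cannot be told apart. The comparison asks which genes differ in tumor endothelial cells of mice in which Tamoxifen was given to induce PPARβ/δ. The Tamoxifen libraries are given in the order Tax2604, Tax2689, Tax2382 and Tax2455 and the vehicle libraries in the order oil2453, oil2315, oil2653 and oil2368.

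A basement membrane is the thin sheet of matrix on which endothelial cells rest and in which pericytes are embedded. Collagen IV molecules are heterotrimers that join into a covalent network, laminins form a network of their own, and nidogens and perlecan connect the networks and bind growth factors. Collagens XV and XVIII carry glycosaminoglycan side chains and sit at the border between the basement membrane and the stroma. The C-terminal fragment of collagen XVIII is endostatin, and fragments of collagen IV and perlecan likewise act on angiogenesis in experimental systems. In tumors the vascular basement membrane is often irregular in thickness and loosely attached.

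The Col4a1 and Col4a2 genes stand head to head on chromosome 8 and are read in opposite directions. In the coordinates of the table, which match GRCm38, Col4a1 lies at chr8:11198423-11312826 on the minus strand and Col4a2 at chr8:11312805-11449287 on the plus strand. Their 5′ ends thus overlap by 22 bases. This overlap, chr8:11312805-11312826 on the plus strand of RefSeq's GRCm38.p6, is shown because the transcripts start at its ends, and its capitals mark a GC box (GGGCGG or CCGCCC).
Col4a1 and Col4a2 5′ overlap: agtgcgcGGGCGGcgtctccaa
Col4a4 and Col4a3 on chromosome 1 are a head-to-head pair too, with 71 bases between them. Col4a5 on chromosome X is 1308 bases from Col4a6, which is not among the 10 genes. Of the 10 genes, 8 had a RefSeq window of 250 bases before to 50 bases after a transcript start (9 windows), and the windows were searched on both strands. The GC box was found in 35.7% of all 32851 windows, CCAAT (or ATTGG) in 37.4%, TATAAA (or TTTATA) in 13.6%, the PPAR half-site AGGTCA (or TGACCT) in 16.3% and AGGTCA repeated after 1 further base of any kind in 0.0396%. Col4a1 had 74.0% and Col4a2 73.7% G and C, against a median of 52.7% over all windows. A GC box was found in the windows of Col4a1, Col4a2, Hspg2, Nid1 and Col4a5 and in a window of Col18a1. The same windows except that of Hspg2 held a CCAAT box. Col4a4, Col15a1 and the other window of Col18a1 held neither box. The windows of Col4a1 and Col4a2 overlap each other. The half-site was found in the window of Col4a4, and the repeated half-site and TATAAA in none of the 9 windows. A match is a string of letters and not a shown binding site. The stretches upstream of Hspg2, Col15a1 and Nid1 are shown as examples that hold many, none and few of these motifs, in genes whose levels are described next. They are from the plus strand of GRCm38.p6 at chr4:137468553-137468768 (Hspg2), chr4:47207762-47208011 (Col15a1) and chr13:13437352-13437550 (Nid1), and capitals mark a GC box or a CCAAT box.
Hspg2 upstream: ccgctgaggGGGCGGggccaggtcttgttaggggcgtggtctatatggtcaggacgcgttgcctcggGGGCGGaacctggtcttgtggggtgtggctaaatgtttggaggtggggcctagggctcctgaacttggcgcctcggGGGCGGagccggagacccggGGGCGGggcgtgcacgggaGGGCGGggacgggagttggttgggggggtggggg
Col15a1 upstream: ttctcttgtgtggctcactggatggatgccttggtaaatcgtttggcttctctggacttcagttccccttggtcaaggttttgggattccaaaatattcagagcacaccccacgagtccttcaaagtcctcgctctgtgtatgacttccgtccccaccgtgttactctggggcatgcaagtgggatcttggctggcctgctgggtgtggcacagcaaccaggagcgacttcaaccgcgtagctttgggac
Nid1 upstream: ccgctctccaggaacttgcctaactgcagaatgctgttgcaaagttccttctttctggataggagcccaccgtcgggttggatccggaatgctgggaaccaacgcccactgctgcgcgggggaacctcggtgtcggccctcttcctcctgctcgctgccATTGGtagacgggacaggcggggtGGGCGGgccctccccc
Hspg2 held 5 GC boxes, Nid1 held 1 GC box and 1 CCAAT box, and Col15a1 held none of the searched motifs.

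The libraries held between 19730726 and 24884372 counts each. The vehicle library oil2453 stood apart, with ribosomal protein genes at 20.6% of its counts against 4.57% to 10.3% in the other 7 libraries and with erythroid marker genes at a summed 6278 CPM (read counts scaled to library size after TMM normalization) against 24.9 to 525 CPM. Ppard, the gene to be overexpressed, was at 122, 70.9, 120 and 118 CPM with Tamoxifen and at 74.1, 88.3, 53.4 and 81.9 CPM with vehicle, so that Tax2689 lay among the vehicle libraries. Its log2 fold change was 0.53 with an SE of 0.25 (edgeR's quasi-likelihood test, adjusted p = 0.460). The endothelial markers Pecam1 and Cdh5, which encode junction proteins, were read in all libraries. Pecam1 averaged 857 ± 211 CPM in the Tamoxifen and 304 ± 83.3 CPM in the vehicle libraries, and Cdh5 averaged 656 ± 248 CPM in the Tamoxifen and 98.4 ± 52.5 CPM in the vehicle libraries (mean ± SD, n = 4 per group). In such bulk samples, fewer cells of a type and less RNA per cell cannot be told apart.

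Col4a1 and Col4a2, which encode the chains of the collagen IV heterotrimer present in nearly all basement membranes, had the highest counts among the 10 genes in the Tamoxifen libraries and lay above the vehicle libraries in every one of them. Col4a1 was at 3542, 1431, 2711 and 1976 CPM with Tamoxifen, against 1087, 159.9, 246 and 579 CPM with vehicle. The lowest Tamoxifen library, Tax2689, was thus above the highest vehicle library, oil2453. Col4a2 was at 2231, 893, 1876 and 1241 CPM with Tamoxifen, against 628, 101, 142 and 404 CPM with vehicle. The libraries ranked in the same order for both genes. The means were 2415 ± 916 CPM in the Tamoxifen and 518 ± 420 CPM in the vehicle libraries for Col4a1, and 1560 ± 605 CPM with Tamoxifen and 319 ± 246 CPM with vehicle for Col4a2 (mean ± SD, n = 4 per group). The fitted log2 fold changes were 2.22 (SE 0.60) and 2.29 (SE 0.60), with adjusted p-values of 0.174 and 0.161 from edgeR's quasi-likelihood test, so neither gene passed the threshold of 0.05. Without the vehicle library oil2453 their log2 fold changes were 2.88 and 2.86, and both passed with adjusted p-values of 0.0417 and 0.0440 from the same test. With any other single library left out neither passed. The adjusted p of that test then ran from 0.199 to 0.448 for Col4a1 and from 0.186 to 0.402 for Col4a2. Together these genes took 0.596%, 0.253%, 0.434% and 0.353% of all counts with Tamoxifen, against 0.130%, 0.0280%, 0.0400% and 0.0999% with vehicle. The highest vehicle library held 6.79 times the Col4a1 level of the lowest, whereas that ratio was 2.47 among the Tamoxifen libraries.

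**Figure D1:**
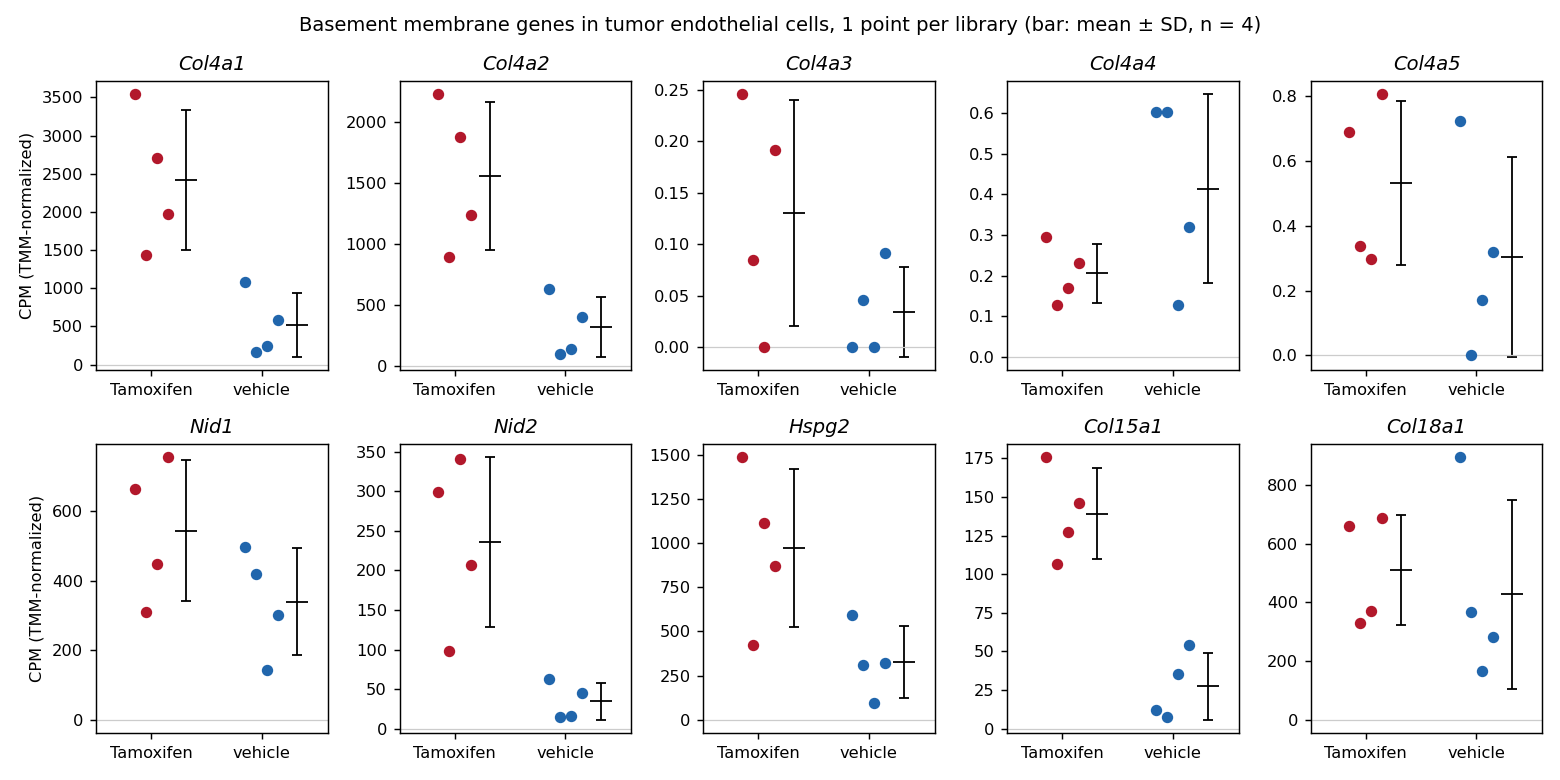
Level of each of the 10 genes (vertical axes, CPM after TMM normalization), with 1 point per library and mean ± SD over 4 libraries per group, Tamoxifen left and vehicle right. Col4a1, Col4a2, Nid2 and Col15a1 show no overlap of the groups, and Col4a3, Col4a4 and Col4a5 lie below 1 CPM in every library.

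The other collagen IV chains were close to the limit of counting. Col4a3, Col4a4 and Col4a5 encode the chains of the networks of the kidney glomerulus and some epithelia, and mutations of their human counterparts cause Alport syndrome. Col4a3 had 5, 2, 0 and 5 counts with Tamoxifen and 0, 1, 0 and 2 counts with vehicle. Col4a4 had 6, 3, 4 and 6 counts with Tamoxifen and 10, 13, 3 and 7 counts with vehicle. These genes share the head-to-head arrangement of Col4a1 and Col4a2, yet Col4a3 summed to 12 counts with Tamoxifen and 3 with vehicle and Col4a4 to 19 with Tamoxifen and 33 with vehicle, beside 221176 with Tamoxifen and 39875 with vehicle for Col4a1. Col4a5 had 14, 8, 7 and 21 counts with Tamoxifen and 12, 0, 4 and 7 counts with vehicle. A count of 0 allows up to 3 counts, which is 0.121 CPM in Tax2382 (Col4a3) and 0.149 CPM in oil2315 (Col4a5), for counting error only. The filter on low counts removed all 3 genes from the test over all libraries. Without that filter edgeR's quasi-likelihood test gave unadjusted p-values of 0.167 for Col4a3, 0.172 for Col4a4 and 0.338 for Col4a5, so a difference between the groups was not detectable at this depth. The neighbouring Col4a6 had 0, 0, 3 and 9 counts with Tamoxifen and 1, 0, 2 and 0 counts with vehicle.

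Of the nidogens, Nid2 was separated by group and Nid1 was not. Nidogens are rod-shaped glycoproteins that bind both the laminin γ1 chain and collagen IV, and either can stand in for the other in many mouse tissues. Nid2 was at 299, 98.1, 340.1 and 206 CPM with Tamoxifen, against 62.5, 14.5, 16.7 and 45.2 CPM with vehicle. The groups did not overlap, and Tax2689 was the lowest Tamoxifen library, as it was for Col4a1. Its mean was 236 ± 107 CPM in the Tamoxifen and 34.7 ± 23.2 CPM in the vehicle libraries (mean ± SD, n = 4 per group), and its log2 fold change of 2.76 (SE 0.56) was the largest of the 7 tested genes. The adjusted p was 0.0917 from edgeR's quasi-likelihood test over all libraries and 0.0396 without oil2453. It was between 0.123 and 0.270 with any other single library left out. Nid1 was at 662, 311, 447 and 756 CPM with Tamoxifen, against 497, 419, 142 and 300.2 CPM with vehicle. The groups overlapped, since oil2453 and oil2315 lay above Tax2689. The means of Nid1 were 544 ± 202 CPM in the Tamoxifen and 340 ± 155 CPM in the vehicle libraries, and its log2 fold change was 0.68 with an SE of 0.42 (edgeR's quasi-likelihood test, adjusted p = 0.535). Nid2 overlaps 2700060E02Rik, a gene on the opposite strand with 15868 counts in all libraries against 24506 of Nid2, by 386 bases. This overlap is of whole gene spans, introns included. The sources used here do not say whether strand was used in counting, so how reads in that stretch were counted is not known.

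Perlecan, encoded by Hspg2, is the large heparan sulfate proteoglycan of basement membranes and binds growth factors such as FGF2 through its side chains. Hspg2 was at 1489, 422, 1113 and 872 CPM with Tamoxifen, against 591, 312, 94.2 and 319 CPM with vehicle. Tax2689 again was the lowest Tamoxifen library and lay below oil2453 but above the other 3 vehicle libraries. The means were 974 ± 447 CPM in the Tamoxifen and 329 ± 203 CPM in the vehicle libraries (mean ± SD, n = 4 per group). The log2 fold change was 1.57 with an SE of 0.55 (edgeR's quasi-likelihood test, adjusted p = 0.333), and without oil2453 it was 2.01 (adjusted p = 0.126). No overlap was then left, which follows from oil2453 being the only vehicle library above Tax2689.

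Of the multiplexins, Col15a1 was separated by group and Col18a1 was not. Col15a1 encodes collagen XV, a proteoglycan of the outer side of capillary and muscle basement membranes. It was at 176, 106, 128 and 146 CPM with Tamoxifen, against 12.1, 7.75, 35.4 and 54.1 CPM with vehicle. The groups did not overlap. The order of the vehicle libraries was not that of Col4a1, since oil2453, the highest vehicle library for Col4a1, was the second lowest for Col15a1. The means were 139 ± 29.5 CPM in the Tamoxifen and 27.3 ± 21.6 CPM in the vehicle libraries, at a log2 fold change of 2.35 with an SE of 0.56 (edgeR's quasi-likelihood test, adjusted p = 0.131). The spread among Tamoxifen libraries was the smallest of the 7 tested genes, with the highest library at 1.65 times the lowest, whereas the vehicle libraries spanned 6.98-fold. Col18a1, which encodes collagen XVIII, was at 659, 330.3, 371 and 687 CPM with Tamoxifen, against 896, 366, 166 and 282 CPM with vehicle. The highest of all 8 libraries was the vehicle library oil2453. The means of Col18a1 were 512 ± 187 CPM in the Tamoxifen and 427 ± 323 CPM in the vehicle libraries (mean ± SD, n = 4 per group). Its log2 fold change was 0.26 with an SE of 0.50 (edgeR's quasi-likelihood test, adjusted p = 0.868), 0.92 without oil2453 and −0.0091 without oil2653. Col18a1 overlaps Slc19a1 on the other strand by 8825 bases of gene span, introns included, and Slc19a1 held 4619 counts in all libraries against 80621 of Col18a1.

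The 8 libraries separated by group for 4 of the 7 tested genes, all of them higher with Tamoxifen, and overlapped for the other 3. Among all 14539 tested genes, 5.87% were higher and 2.01% lower without overlap. Without oil2453, 5 of the 7 genes were higher without overlap, against 8.7% of all genes tested. That count was added after the data were seen, and leaving out a library can only keep or remove the overlap of a gene. By edgeR's quasi-likelihood test none of the 7 passed an adjusted p of 0.05, and neither did any of all genes tested (0% in each direction). At an unadjusted p under 0.05 the same test had 5 of the 7 genes, all higher with Tamoxifen, against 7.39% of all genes tested. The median log2 fold change of the 7 genes was 2.22, beside −0.033 over all genes tested. DESeq2 called Nid2 (adjusted p = 0.00013), Col15a1 (0.00182), Col4a2 (0.00445) and Col4a1 (0.00678), all higher with Tamoxifen, against 3.78% of all genes tested called higher. Limma-voom called none of them and 0% of all genes. Without oil2453, edgeR called 3 of the 7 genes, against 1.72% of all genes called higher. Without oil2368 it called none of the 7, against 0.21% of all genes called higher. With any other single library left out it called no gene at all.

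**Figure D2:**
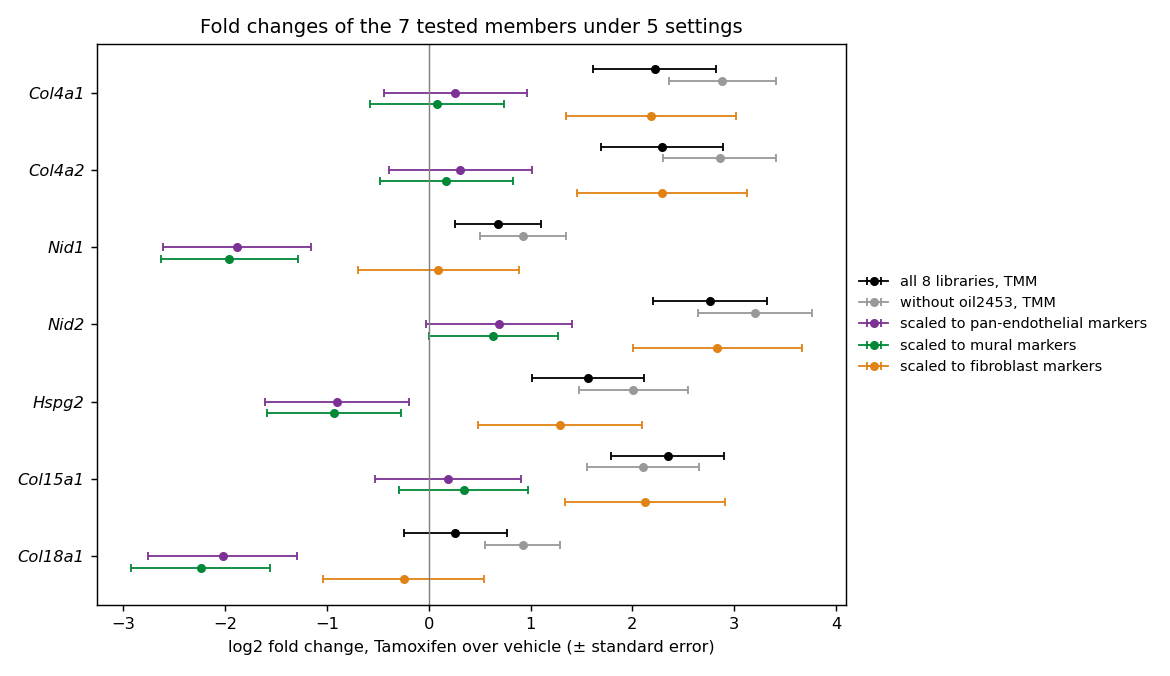
Log2 fold change of Tamoxifen over vehicle with its standard error (horizontal axis) for the 7 tested genes under 5 settings. Nid2, Col15a1, Col4a2 and Col4a1 lie above 1.9 in the fits that are not scaled to endothelial or mural markers, and Nid1, Hspg2 and Col18a1 lie below 0 when scaled to either of those marker lists.

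Levels were compared between genes per gene length, with the deposited FPKM (fragments scaled to gene length and library size). Col4a1 led with 682 FPKM on average with Tamoxifen and 126 FPKM with vehicle, followed by Col4a2 with 591 FPKM with Tamoxifen and 105 FPKM with vehicle and by Col18a1 with 142 FPKM with Tamoxifen and 101 FPKM with vehicle. The SDs over the 4 Tamoxifen libraries were 242 FPKM for Col4a1, 210.3 FPKM for Col4a2 and 55.9 FPKM for Col18a1. Over the 4 vehicle libraries they were 83.3 FPKM for Col4a1, 68.4 FPKM for Col4a2 and 57.9 FPKM for Col18a1. The ranges of Col4a1 and Col4a2 overlapped in both groups, and with vehicle Col18a1 overlapped them as well. Within each single library, however, Col4a1 had a higher FPKM than Col4a2. With Tamoxifen these were followed by Hspg2 at 103 FPKM, Nid1 at 93.9 FPKM, Col15a1 at 74.3 FPKM and Nid2 at 49.3 FPKM. With vehicle, Hspg2 was at 30.95 FPKM, Nid1 at 52.9 FPKM, Col15a1 at 14.0 FPKM and Nid2 at 6.46 FPKM. Among these 7 genes, neighbours in the order of their group overlapped in their ranges in both groups, except that Col4a2 lay above Col18a1 in every Tamoxifen library. The 3 remaining chains were at or below 0.131 FPKM on average in each group. The deposited FPKM were 1 to 2.94 times the counts divided by listed gene length and library size, depending on the gene. Divided by listed length, Col18a1 and Nid1 had higher vehicle means than Col4a2, whereas Col4a1 was first in both groups either way.

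**Figure D3:**
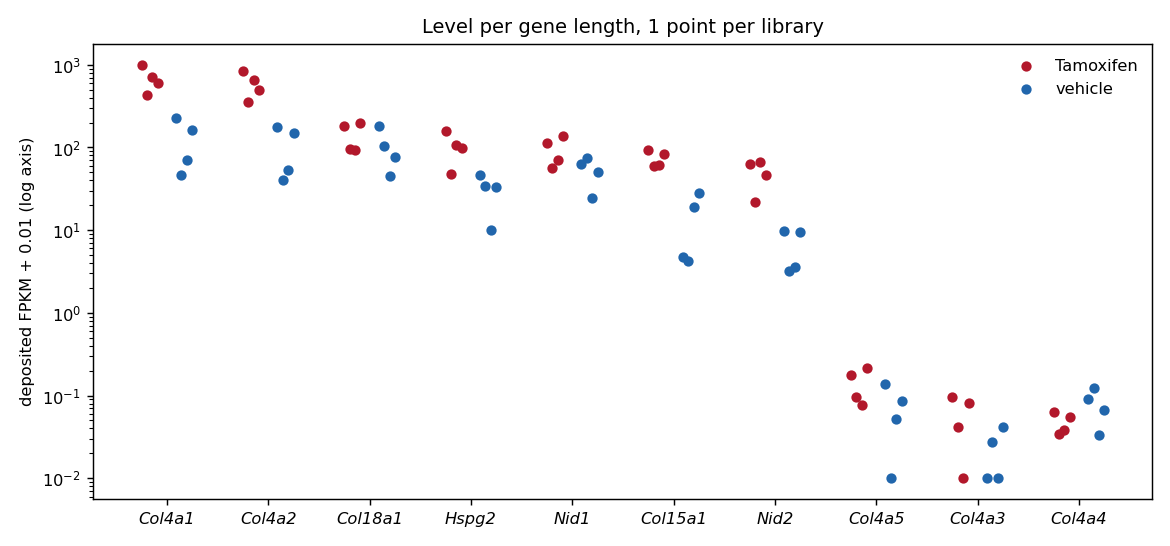
Deposited FPKM plus 0.01 on a log axis, with 1 point per library, for the 10 genes in order of level, Tamoxifen left of vehicle for each gene. Col4a1 and Col4a2 reach 1003 and 849 FPKM, and Col4a3, Col4a4 and Col4a5 stay near or below 0.2 FPKM.

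Along with Col4a1, Col4a2, Nid2 and Col15a1, most endothelial and mural cell markers were separated by group. Of the 22 pan-endothelial markers, 19 were higher without overlap, with 2.14 as their median log2 fold change and a summed level of 2980 to 5746 CPM with Tamoxifen against 461 to 2033 CPM with vehicle. Of the 12 tested mural markers (of 13), 9 were higher without overlap, with a median of 2.10 and a sum of 659 to 966 CPM with Tamoxifen against 58.3 to 235 CPM with vehicle. Cnn1, a smooth muscle gene, was the mural marker that was too low to test, at means of 0.330 CPM with Tamoxifen and 0.173 CPM with vehicle. Over all genes tested, 5.87% were higher and 2.01% lower without overlap. None of the 14 fibroblast markers and none of the 12 macrophage markers was separated, which is near those shares. The median log2 fold change was 0.44 for the fibroblast and 0.096 for the macrophage markers. Fibroblast markers summed to 652 to 3981 CPM with Tamoxifen and 1344 to 3908 CPM with vehicle, and macrophage markers to 8710 to 16253 CPM with Tamoxifen and 5073 to 12838 CPM with vehicle. No marker of any list was at 0 in all libraries. The part of these cell types in the levels of the basement membrane genes was not tested. Scaling the libraries to the pan-endothelial markers moved the median log2 fold change of all genes to −2.59, and Col4a1 was then at 0.26, Col4a2 at 0.31, Nid2 at 0.69 and Col15a1 at 0.19. On that scale Hspg2 was at −0.90, and Nid1 (−1.88, adjusted p = 0.0116) and Col18a1 (−2.02, adjusted p = 0.00707) fell by edgeR's quasi-likelihood test, as did 13277 of the 14539 genes tested. Relative to the median of all genes, the 7 genes lay between 0.57 and 3.28 under this scaling. Scaling to the mural markers gave 0.082 for Col4a1, 0.17 for Col4a2, 0.63 for Nid2, 0.34 for Col15a1, −0.93 for Hspg2, −1.96 for Nid1 and −2.24 for Col18a1.

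Markers of other cells were high in single libraries. The vehicle library oil2653, which had the lowest Nid1, Hspg2 and Col18a1 of all libraries, had summed B cell markers of 517 CPM and T and NK cell markers of 286 CPM, against at most 81.3 and 88.0 CPM in any other library. The vehicle library oil2453, which had the highest Col18a1, had the erythroid and ribosomal protein levels given above, and its epithelial or tumor markers summed to 769 CPM, against 127 to 230.4 CPM in the other libraries. Its macrophage markers had the lowest sum, 5073 CPM, against at least 8710 CPM elsewhere. Tax2689, the Tamoxifen library with the lowest Col4a1, Col4a2, Nid1, Nid2, Hspg2, Col15a1 and Col18a1, was also the one with Ppard at a vehicle level, at a summed pan-endothelial level of 3517 CPM that lay above that of Tax2455. The part of these differences in the results was not tested.

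**Figure D4:**
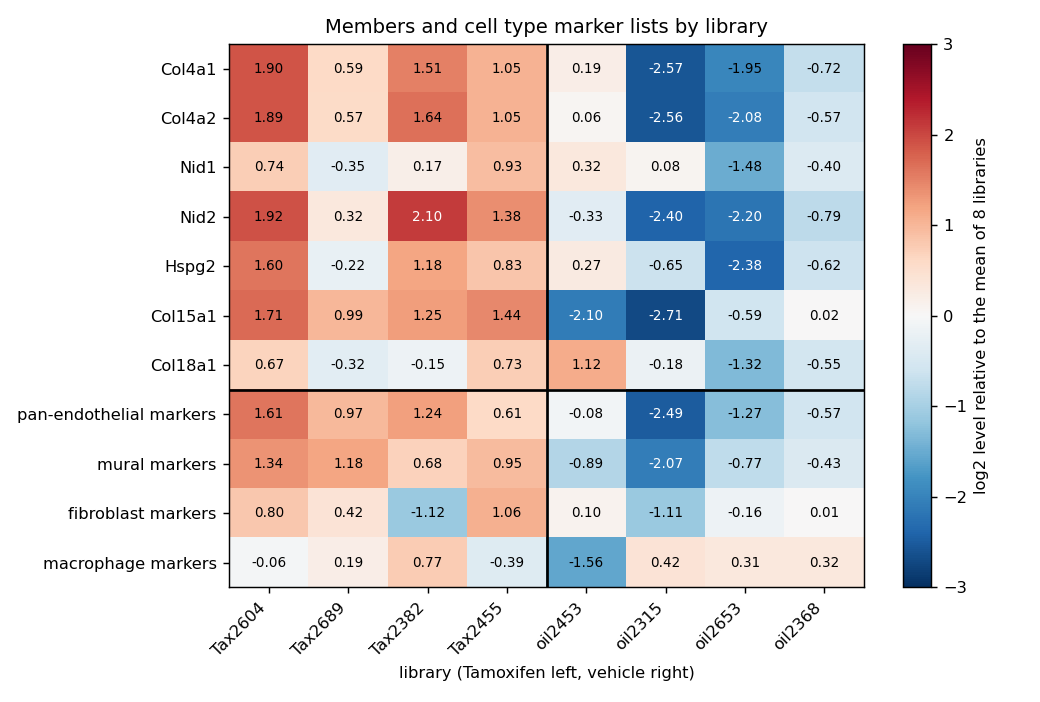
Level of each tested gene (upper rows) and mean level of each cell type marker list (lower rows) per library, as log2 relative to the mean of the 8 libraries, Tamoxifen left and vehicle right. Col4a1, Col4a2, Nid2 and the pan-endothelial list are all lowest in oil2315, among the Tamoxifen libraries the 3 genes are lowest in Tax2689 and the list in Tax2455, and Nid1 and Col18a1 are lowest in oil2653.

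Ratios of genes within a library do not depend on the scaling between libraries. The ratio of Col4a1 to Col4a2 counts lay between 1.43 and 1.74 in all 8 libraries, although the Col4a1 level spanned 159.9 to 3542 CPM. On the log2 scale it averaged 0.64 ± 0.071 with Tamoxifen and 0.69 ± 0.13 with vehicle, a difference of −0.053 (mean ± SD, n = 4 per group; exact two-sided permutation test, p = 0.629). The ratio of Nid1 to Nid2 counts was 2.22, 3.17, 1.31 and 3.66 with Tamoxifen, against 7.95, 28.9, 8.48 and 6.64 with vehicle. All 4 Tamoxifen libraries were below all 4 vehicle libraries. The log2 difference was −2.14, at p = 0.0286 by the exact two-sided permutation test, which is the smallest that 70 assignments can give, and at 0.143 after adjustment over the 5 ratios. For Col15a1 to Col18a1 the log2 ratio was −1.83 ± 0.31 with Tamoxifen and −4.09 ± 2.08 with vehicle, a difference of 2.26 (exact permutation p = 0.0571, adjusted 0.143). For Hspg2 to Col4a1 it was −1.37 ± 0.27 with Tamoxifen and −0.54 ± 1.03 with vehicle, a difference of −0.83 (exact permutation p = 0.114, adjusted 0.190). Col4a5 to Col4a1, with 0 to 21 counts of Col4a5, gave −12.13 ± 0.76 with Tamoxifen and −11.07 ± 1.13 with vehicle (exact permutation p = 0.171, adjusted 0.214). Leaving out oil2653 made the difference for Nid1 to Nid2 −2.25, for Col15a1 to Col18a1 2.89 and for Hspg2 to Col4a1 −1.11, each at an adjusted exact permutation p of 0.0476. There are then fewer than 70 assignments, and this value arises because the groups were fully separated in all 3 ratios at once. With any other single library left out, the adjusted exact permutation p of these ratios was 0.0952 or more.

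**Figure D5:**
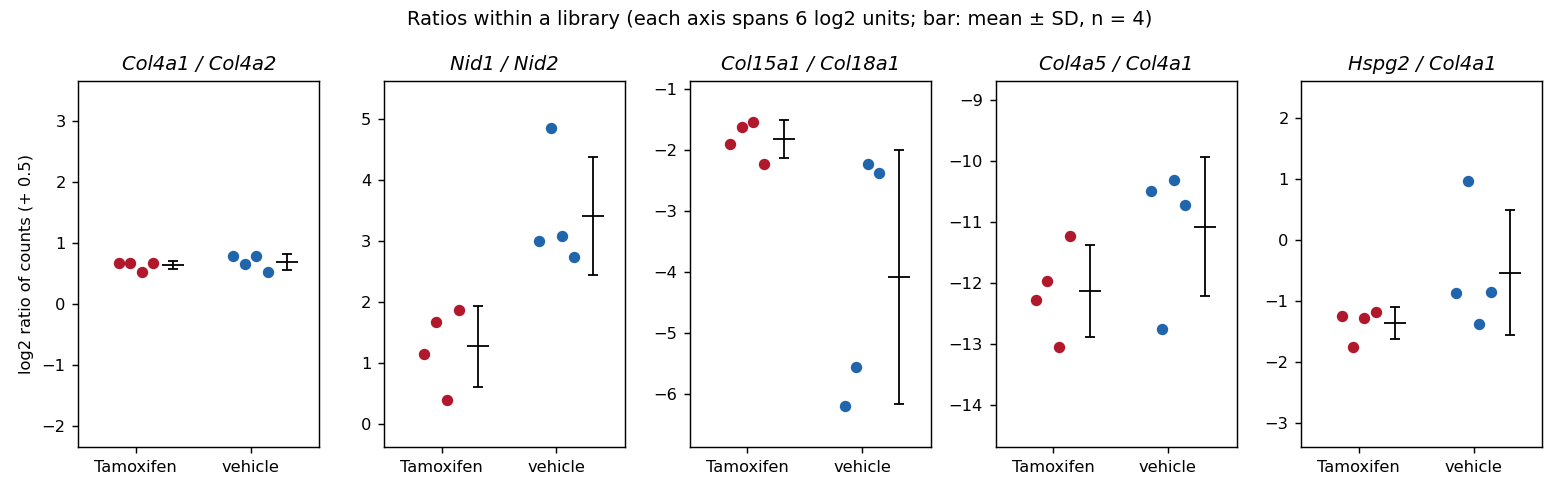
Log2 ratio of counts (0.5 added to each count) of 5 gene pairs within a library, with 1 point per library and mean ± SD over 4 libraries, Tamoxifen left and vehicle right, each axis spanning 6 log2 units. Col4a1 to Col4a2 stays within 0.52 to 0.80 in both groups, and Nid1 to Nid2 is lower in all 4 Tamoxifen libraries than in all 4 vehicle libraries.

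The genes whose levels across the 8 libraries were most like Col4a1 were found by the root mean square distance of the log2 CPM (0.5 added) after centring each gene. Col4a2 was closest among all tested genes, at a distance of 0.095 log2 units. It was followed by Vwf (0.137), which encodes von Willebrand factor, Nova2 (0.185), a splicing regulator, Robo4 (0.190), an endothelial guidance receptor, and Notch4 (0.201), an endothelial Notch receptor. Of the other members Nid2 came at rank 33 (0.336), Hspg2 at rank 280, Col15a1 at rank 553, Nid1 at rank 989 and Col18a1 at rank 1131. These distances rest on 8 libraries that share the group difference and the depth of each library.

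Other genes of the basement membrane had higher values for part of their number. Of 21 such genes, 18 were tested, none was called, 8 were higher in all Tamoxifen libraries (5.87% of all genes tested were) and none was lower, at a median log2 fold change of 0.98. Lama4, a laminin chain of vascular basement membranes, was at 259, 107, 248 and 183 CPM with Tamoxifen and at 63.8, 13.3, 21.3 and 43.1 CPM with vehicle (log2 fold change 2.50, edgeR's quasi-likelihood test, adjusted p = 0.0909). The laminin chains Lama5 and Lamb1 overlapped between the groups, at log2 fold changes of 0.49 and 0.21 (same test, adjusted p = 0.697 and 0.899). Sparc, a collagen-binding matricellular protein, was at 2135 ± 577 CPM in the Tamoxifen and 570 ± 313 CPM in the vehicle libraries, with a log2 fold change of 1.91. Lama3 was far lower, at 4.82 ± 2.71 CPM in the Tamoxifen and 0.778 ± 0.652 CPM in the vehicle libraries. Without oil2453 the test called Lama4, Sparc and Lamb2, with adjusted p-values up to 0.0477, beside 1.72% of all genes called higher.

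Genes for making, binding and degrading the network were grouped into 3 further lists, in which no gene was called. Of 20 genes of collagen IV biosynthesis, 2 were higher without overlap, a share near the 5.87% of all genes tested, and the median log2 fold change was 0.28. Leprel1, the prolyl 3-hydroxylase that acts on collagen IV, was at 23.6, 17.2, 19.9 and 15.5 CPM with Tamoxifen and at 4.82, 6.59, 2.87 and 7.63 CPM with vehicle (log2 fold change 1.80, edgeR's quasi-likelihood test, adjusted p = 0.0798). Pxdn, the peroxidase that forms sulfilimine bonds between collagen IV molecules, was at 330.3 ± 111 CPM in the Tamoxifen and 164 ± 78.7 CPM in the vehicle libraries, with overlap. Loxl2, a lysyl oxidase that crosslinks collagen IV, was at 22.4 ± 4.66 CPM in the Tamoxifen and 11.4 ± 5.17 CPM in the vehicle libraries. Serpinh1, the collagen chaperone HSP47, had a log2 fold change of 0.66 and passed the test without oil2453 (adjusted p = 0.0431). Of 11 tested receptor genes, 3 were higher without overlap, at a median of 0.65. Itga1, part of a collagen IV receptor, was at 48.4 ± 19.0 CPM in the Tamoxifen and 10.4 ± 6.92 CPM in the vehicle libraries. Itgb3, part of an integrin that binds matrix fragments, was at 149 ± 52.7 CPM in the Tamoxifen and 59.9 ± 27.5 CPM in the vehicle libraries, and Itga3, part of a laminin receptor, was at 109.7 ± 27.1 CPM with Tamoxifen against 54.0 ± 27.0 CPM with vehicle, with overlap. Itga3 passed edgeR's quasi-likelihood test without oil2453 (adjusted p = 0.0419). Of 22 tested genes of degradation and heparan sulfate synthesis, 5 were higher without overlap, at a median of 0.19. Tll1, a tolloid-like protease, was at 22.9, 24.9, 19.3 and 11.8 CPM with Tamoxifen and at 3.14, 2.04, 2.44 and 7.31 CPM with vehicle (log2 fold change 2.40). Ext1 and Extl3, which act in heparan sulfate chain synthesis, were at 95.1 ± 12.5 and 78.1 ± 5.96 CPM with Tamoxifen and at 58.1 ± 9.24 and 47.4 ± 15.5 CPM with vehicle. None of the 4 lists held a gene that was lower with Tamoxifen without overlap.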

How the data were processed

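Counts and FPKM of 8 libraries were taken from the table of the whole series that the authors deposited. The authors removed reads with adapters, poly-N and low quality, and the deposited counts per gene come from HTSeq 0.6.1. Bowtie2 2.2.3, TopHat2 2.0.12 and the build mm8 stand in the submitters' processing notes, but the positions of 8 of the 10 genes are identical to GENCODE M21 (GRCm38). The deposited FPKM were computed by the authors from the count and a gene length. The table also holds normalized group means, fold changes and p-values of the authors' own comparison, which were not used. Of the rows, 481 have no gene symbol.

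Counts were tested with edgeR 4.0.16 (TMM, quasi-likelihood test, minimum count 10, 14539 genes tested, Benjamini-Hochberg adjustment over all of them, threshold 0.05) in R 4.3.3, and the fits were tested on simulated data. The common dispersion was 0.1945 (biological coefficient of variation 0.441). Standard errors of edgeR's log2 fold changes were derived from its test, as the absolute log2 fold change over the square root of the F statistic. Ratios within a library used counts + 0.5 and an exact two-sided permutation over 70 assignments, or fewer with 1 library left out, with scipy 1.17.1. That 1 library is 1 mouse was taken from the numbers in the labels, and p-values otherwise measure the spread between libraries. The alternatives were DESeq2 1.42.0, limma 3.58.1 (voom on counts, trend on log2(FPKM + 1) and log2(FPKM + 0.1)), other scalings and filters, and leaving out each library. The non-overlap count without oil2453 was added after seeing the data. Named were all 10 genes, Ppard, Pecam1, Cdh5, the 3 tested genes of smallest p in each pathway list and the 5 genes most like Col4a1. Lama5, Lamb1, Lamb2, Serpinh1, Cnn1 and Col4a6 were named after their values were seen. The members and lists were chosen with earlier results of these data known. Sequences are RefSeq's for GRCm38.p6.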

Additional observations from a re-analysis of the deposited data

Results flagged for a closer look

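In 30 groups of 4 values examined (levels and ratios of the 10 genes), 3 single libraries lay farther from the others of their group than Dixon's 95% limit, and chance alone marks about 1 in 20 such groups. The log2 ratio of Col4a1 to Col4a2 was 0.53 in the Tamoxifen library Tax2382, against 0.67 to 0.68 in the other 3 Tamoxifen libraries. The log2 ratio of Nid1 to Nid2 was 4.85 in the vehicle library oil2315, against 2.73 to 3.08 in the other 3 vehicle libraries. The log2 ratio of Col4a5 to Col4a1 was −12.75 in oil2315, which had no Col4a5 count, against −10.72 to −10.32 in the other vehicle libraries. The same library had the lowest Col4a1, Col4a2 and Nid2 levels and the lowest summed pan-endothelial markers (461 CPM) of all libraries.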

How the results depend on the processing

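All genes called (main count 0, and 0 of the 10 members) numbered 177 with library size alone (1 member, Nid2), 574 with DESeq2 (4 members), 68 without the low-count filter, 317 on log2(FPKM + 1) and 221 on log2(FPKM + 0.1) (4 members each), and 13277 and 13439 when scaled to pan-endothelial and mural markers (2 members each). The calls under these 2 marker scalings, out of 14539 genes tested, were all lower with Tamoxifen. The members called under the other settings of this list were all higher. Leaving out 1 library gave 0 to 256 genes and 0 to 3 members, with 256 and 3 without oil2453 and 31 and 0 without oil2368. Nid1 reversed to −1.88 and −1.96, Hspg2 to −0.90 and −0.93 and Col18a1 to −2.02 and −2.24 under the pan-endothelial and mural scalings, and Col18a1 to −0.25 under fibroblast scaling. Col18a1 ranged from −0.0091 (without oil2653) to 0.92 with 1 library left out. These scalings moved the median of all genes to −2.59, −2.53 and −0.43, and the cause was not tested. With 1 library left out, Nid1 to Nid2 ranged from −2.37 to −1.66, Col15a1 to Col18a1 from 1.56 to 2.89 and Hspg2 to Col4a1 from −1.11 to −0.33. The adjusted exact permutation p of each was 0.0476 without oil2653 and 0.0952 or more with any other library left out. Of the alternative fold changes of single members, 109 kept their direction and side of the threshold, 16 passed it newly and 8 reversed. FPKM gave no value for Col4a5 to Col4a1, since Col4a5 is listed at 0 in oil2315. Depth limits Col4a3, Col4a4 and Col4a5, with at most 21 counts per library. No paired analysis was possible because the groups share no replicate numbers.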
